A study of Mus musculus with 4 samples.

Results

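The readers of N6-methyladenosine (m6A) examined here were 10 genes of 4 families: Ythdf1, Ythdf2, Ythdf3, Ythdc1 and Ythdc2, which carry a YTH domain, Igf2bp2 and Igf2bp3 of the insulin-like growth factor 2 mRNA-binding family, and Fmr1, Fxr1 and Fxr2 of the fragile X family. They were listed by name out of a table of 53465 gene identifiers, with earlier results of these data known, and all 10 passed the filter on low counts. The remaining IGF2BP paralog, Igf2bp1, is not among them and had 0 counts in all 4 libraries. The counts came from polyadenylated RNA of libraries labelled MLE-12, a mouse lung epithelial line immortalized with SV40 large T antigen under a human surfactant promoter. Cells kept with 5 µM 1-nitropyrene for 12 h gave 2 libraries (replicates 2 and 3), and cells labelled control, kept without it, gave 2 libraries (replicates 1 and 2). 1-Nitropyrene is a nitrated polycyclic hydrocarbon of diesel exhaust. The study's stated question was its influence on translation of Fbxw7 mRNA, and its title names the m6A demethylase ALKBH5.

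m6A is placed on adenosines of mRNA by a nuclear methyltransferase complex and removed by demethylases, and reader proteins bind the marked sites. YTH proteins hold the methylated base itself in an aromatic pocket. YTHDF proteins act in the cytoplasm, where they are best known for promoting decay of marked mRNAs, YTHDC1 acts in the nucleus in splicing and export, and YTHDC2 is a helicase needed in the germ line. IGF2BP proteins stabilize bound mRNAs, and fragile X proteins regulate translation, with m6A-dependent binding proposed for both families.

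Total counts were 8797502 and 8601825 in 1-nitropyrene replicates 2 and 3, and 10773733 and 6908055 in control replicates 1 and 2. Ribosomal RNA loci held between 44.3% and 46.1% of them. Several defining markers of the labelled cell type were absent: 8 of 8 epithelial markers (among them Cdh1, Epcam and Krt8) and 6 of 10 alveolar markers (among them Sftpb and Nkx2-1) had 0 counts in all 4 libraries. The alveolar markers summed to 14.9 and 14.3 CPM (counts scaled to a common total) with 1-nitropyrene and to 14.7 and 13.5 CPM in control. Between 36.7% and 40.6% of protein-coding genes had a count in a library, and broadly used genes such as Pop1 and Nxt1 were also at 0. What the markers at 0 say about cell type was not tested. Mesenchymal markers summed to 387 and 401 CPM with 1-nitropyrene and to 350 and 346 CPM in control. None of the 8 was at 0 in all libraries, but the same held for the 3 endothelial markers. How the sum was spread over the 8 mesenchymal markers is not given, and their part in the differences below was not tested. Leukocyte and endothelial markers each stayed at or below 0.29 CPM in sum. The mitochondrial mRNAs summed to 24.6 CPM in 1-nitropyrene replicate 2 and 1.86 CPM in replicate 3, against 46.9 and 30.4 CPM in the controls. In such bulk samples, fewer cells of a type and less RNA per cell cannot be told apart.

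Of the 10 readers 1 rose, 1 fell and 8 did not pass the test. Fxr1 fell to 0.816 of its control level and Fxr2 rose to 1.222 of its control level. Both belong to the fragile X family. Calls are at an adjusted p under 0.05 in edgeR's quasi-likelihood test with Benjamini-Hochberg adjustment over 7738 genes, of which 24.5% were called, 13.2% as higher and 11.2% as lower. Among the 2502 genes whose mean level lay between those of the lowest and the highest reader, 42.6% were called. The 2 of 10 readers called are thus no more than the share over all genes. At an unadjusted p under 0.05 there were 4 readers, against 34.3% of all genes tested. The median log2 fold change of the readers was 0.009 and that of all genes tested -0.004, and the median absolute change was 0.107 in the readers and 0.203 over all genes. All values for a single gene are CPM scaled with TMM factors, and means are given ± SD with n = 2 libraries. The labels do not say whether each library had a culture of its own, so p-values measure only the spread between these libraries, pooled over genes, which may be technical. A permutation of 2 against 2 libraries cannot give an exact two-sided p below 0.333.

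**Figure D1:**
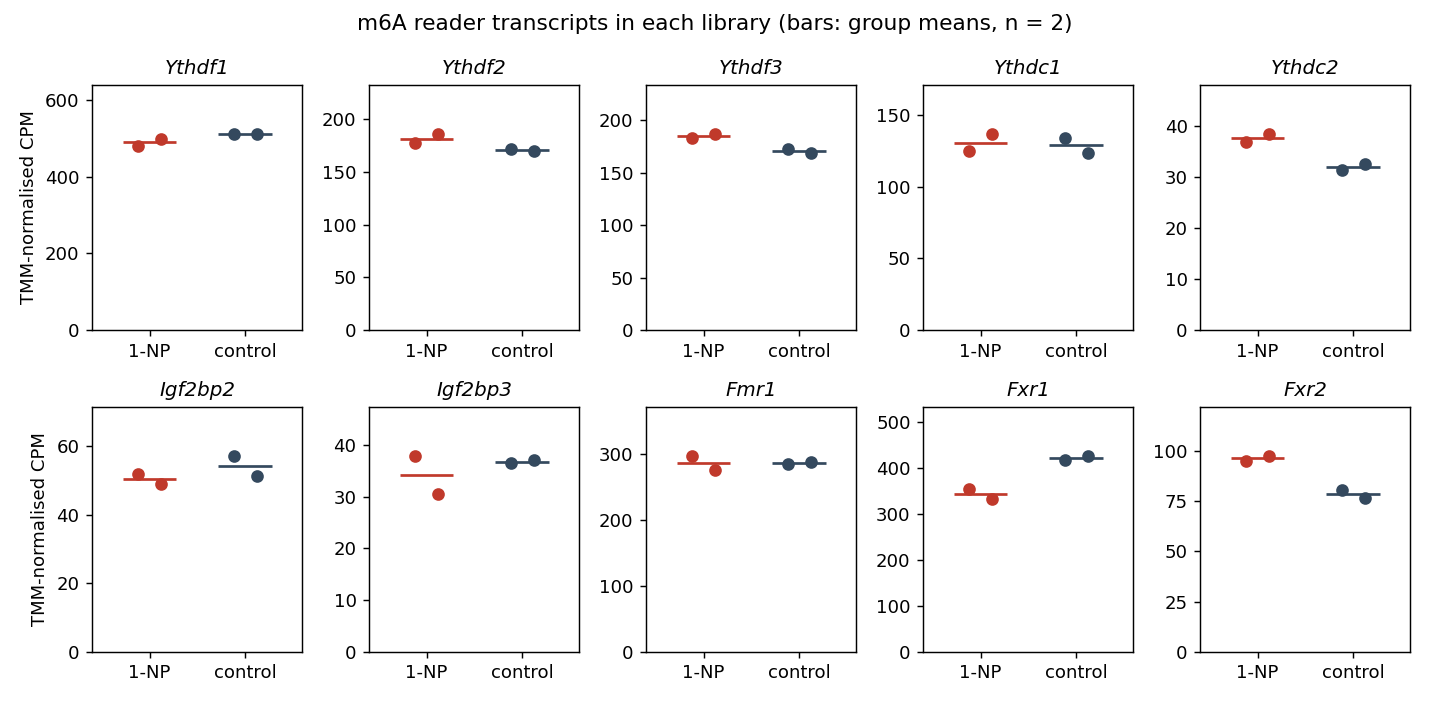
Level of each of the 10 m6A readers in TMM-normalised CPM (vertical axis from 0) in the 2 libraries with 1-nitropyrene (1-NP, red) and the 2 control libraries (dark), with a line at each group mean. Fxr1 lies at 332 to 354 CPM with 1-nitropyrene, below both controls (416 and 426 CPM), and Fxr2 at 95 to 97.7 CPM, above both controls (76.6 and 80.4 CPM).

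Because these were the 2 readers called, the DNA directly upstream of their annotated starts is shown, from the RefSeq promoter table on GRCm38.p6 and up to the first start given by RefSeq or GENCODE M21. Both lie on the plus strand, at chr3:34019829-34019942 for Fxr1 and chr11:69632721-69632970 for Fxr2. Capitals mark matches on either strand to GCGTG, the core that the Ah receptor, a sensor of polycyclic hydrocarbons, binds, or to GGGCGG, the GC box.
Fxr1: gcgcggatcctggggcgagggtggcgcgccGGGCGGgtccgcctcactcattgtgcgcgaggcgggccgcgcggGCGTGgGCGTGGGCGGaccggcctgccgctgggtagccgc
Fxr2: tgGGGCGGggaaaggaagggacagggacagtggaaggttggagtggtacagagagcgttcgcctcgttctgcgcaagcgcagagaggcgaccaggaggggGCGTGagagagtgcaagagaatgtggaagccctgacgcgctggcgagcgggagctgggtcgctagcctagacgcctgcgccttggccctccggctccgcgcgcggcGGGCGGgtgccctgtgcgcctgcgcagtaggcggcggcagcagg
The stretch of Fxr1 held 2 matches to GCGTG and 2 to GGGCGG, the last of which overlaps a GCGTG, and was 81.6% G or C. That of Fxr2 held 1 match to GCGTG and 2 to GGGCGG and was 69.6% G or C. Neither stretch held CCAAT or CCGGAAG, the cores of the CCAAT box and of ETS sites. Windows from 250 bases before to 50 after the start were examined for 8 of the 10 readers, without Ythdf3 and Ythdc2. Of these 8, 6 held GCGTG and 7 held GGGCGG. Over all 32851 windows of that length in the table, 32.4% held GCGTG and 35.7% held GGGCGG. The readers' windows were between 60.3% and 76.7% G or C, against a median of 52.7% over all windows. Both motifs are themselves rich in G and C, and no share over windows of like composition was taken. The gene that rose and the gene that fell thus both had GC-rich upstream DNA with these letters in it, and a match is a description, not a binding site.

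Among the fragile X family, Fxr1 (chromosome 3, 34019943 to 34070322, plus strand), an RNA-binding protein abundant in muscle, was the most strongly counted. It had 354 and 332 CPM in 1-nitropyrene replicates 2 and 3, against 416 and 426 CPM in control replicates 1 and 2. Both treated libraries lay below both controls, and the gap between the groups was wider than the gap within either. Fxr1 averaged 343 ± 15.2 CPM with 1-nitropyrene and 421 ± 7.45 CPM in control, a log2 fold change of -0.29 (SE 0.04, edgeR adjusted p = 8.04e-14). The fall was called in each of 15 alternative fits, with log2 fold changes from -0.34 to -0.25, and was -0.25 without 1-nitropyrene replicate 3. Fxr1 shares 178 bp of exon with Dnajc19 on the opposite strand, and whether the counting used strand is not given in the sources used here. Dnajc19, a mitochondrial import gene, also fell, to 28.5 ± 1.83 CPM with 1-nitropyrene against 35.1 ± 3.4 CPM in control (log2 fold change -0.28, SE 0.11, edgeR adjusted p = 0.042), and its part in the Fxr1 counts was not tested. Its call ended in 5 of the 15 alternative fits, among them DESeq2. A pseudogene with 761 bp at 93.6% identity to Fxr1, Gm17795, had 1 and 1 counts with 1-nitropyrene and 4 and 0 in control.

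Fxr2 (chromosome 11, 69632990 to 69653297, plus strand), a ribosome-associated paralog, went the other way. Its level was 95 and 97.7 CPM in 1-nitropyrene replicates 2 and 3, against 80.4 and 76.6 CPM in control replicates 1 and 2, with no overlap between the groups. It averaged 96.4 ± 1.88 CPM with 1-nitropyrene and 78.5 ± 2.68 CPM in control, a log2 fold change of 0.29 (SE 0.07, edgeR adjusted p = 0.000143). The rise was called in each of 15 alternative fits, with log2 fold changes from 0.26 to 0.33 and a largest adjusted p of 0.0263, in DESeq2. Fxr2 shares no exon sequence with another annotated gene.

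Fmr1 (X chromosome, 68678541 to 68717963, plus strand) encodes FMRP, a repressor of translation whose loss causes fragile X syndrome in people. It had 297 and 276 CPM with 1-nitropyrene, against 285 and 287 CPM in control, and the treated libraries lay on either side of the controls. Its log2 fold change was 0.00 (SE 0.04, edgeR adjusted p = 0.976), and the 95% interval of the ratio of 1-nitropyrene to control ran from 0.948 to 1.059. A stretch of 640 bp of Fmr1 matches a Dffa transcript at 96.6% identity, and Dffa had 0 counts in all 4 libraries.

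The make-up of the family was compared within each library, where scaling between libraries plays no part. The log2 ratio of Fxr2 to Fxr1 counts was -1.90 and -1.77 with 1-nitropyrene, against -2.37 and -2.48 in control, a difference of 0.59 in the mean. Fxr2 made up 12.7% and 13.8% of the family's counts with 1-nitropyrene, against 10.3% and 9.7% in control. Fxr1 made up 47.4% and 47.1% with 1-nitropyrene, against 53.2% and 54% in control. Fmr1 made up 39.8% and 39.1% with 1-nitropyrene, against 36.5% and 36.3% in control. All 3 shares were apart between the groups by more than they differed within them, but no background of such shares over other gene families was taken. In level, 59.2% of all genes tested had groups that did not overlap. Shares in a family depend on each other, and that of Fmr1 rose although the log2 fold change of its level was 0.00. With Wilson intervals at the 95% level, which cover counting error only, the share of Fxr1 lay within 45.8% to 48.7% in the treated libraries and 52.1% to 55.3% in the controls. The family's summed level was 745.7 and 705.9 CPM with 1-nitropyrene, below 781.2 and 789.8 CPM in control.

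**Figure D2:**
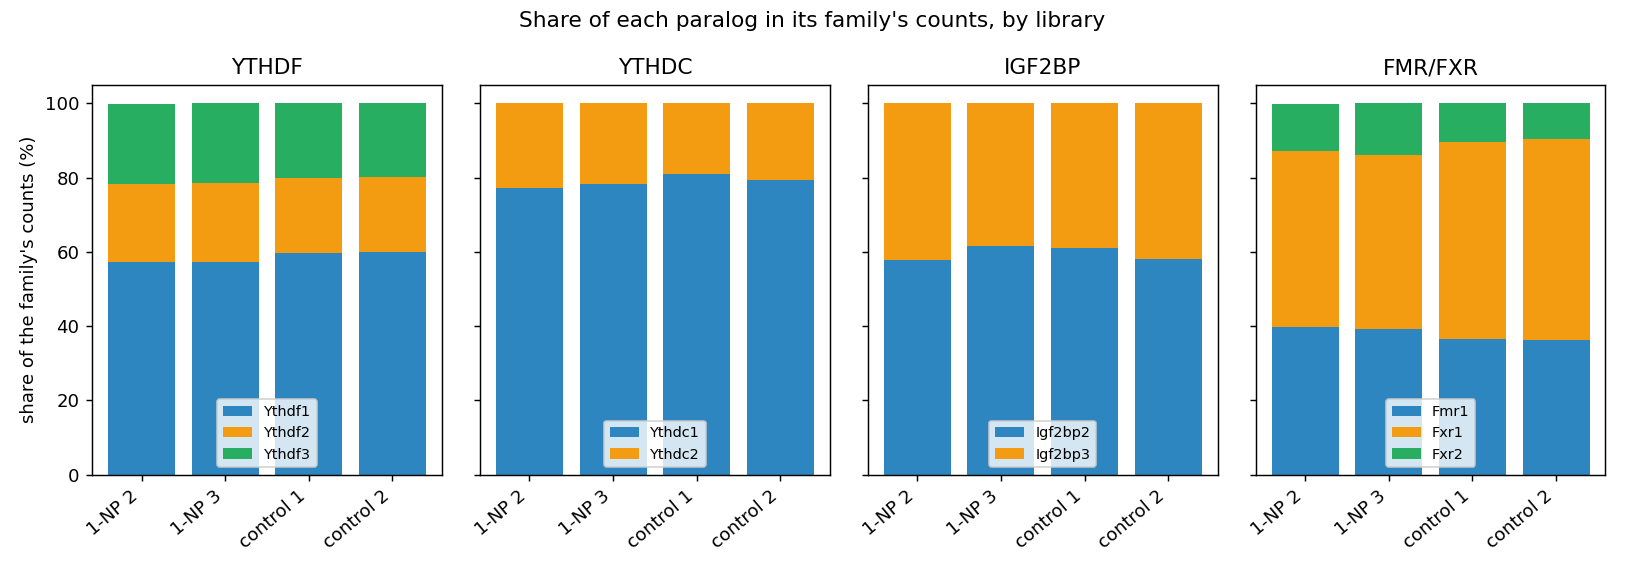
Share of each paralog in its family's raw counts (vertical axis, %) in each of the 4 libraries, 1-nitropyrene (1-NP) left of control. In the FMR/FXR panel Fxr2 takes 12.7% and 13.8% with 1-nitropyrene against 10.3% and 9.7% in control, and in the YTHDF panel Ythdf1 takes 57.2% and 57.3% against 59.8% and 60.1%.

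None of the 3 cytoplasmic YTHDF readers passed the test in edgeR, and DESeq2 called none either. At an unadjusted p under 0.05 there was 1, Ythdf3. Ythdf1 (chromosome 2, 180904377 to 180920949, minus strand), linked to translation as well as decay of marked mRNAs, was the most highly counted reader. Its level was 481 and 499 CPM with 1-nitropyrene, against 512 and 511 CPM in control, so both treated libraries were lower, by a small margin in replicate 3. The log2 fold change was -0.06 (SE 0.03, edgeR adjusted p = 0.192), with a 95% interval of the ratio from 0.916 to 1.004. It was called lower in 2 of 15 alternative fits, without scaling factors (-0.09, adjusted p = 0.0348) and with only genes averaging 10 CPM or more (-0.08, adjusted p = 0.042), and its adjusted p ranged up to 0.608 over the 15. Without 1-nitropyrene replicate 2 its log2 fold change was -0.0344.

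Ythdf2 (chromosome 4, 132184912 to 132212303, minus strand), which brings the CCR4-NOT deadenylase to marked mRNAs, had 177 and 186 CPM with 1-nitropyrene, against 172 and 170 CPM in control. The groups did not overlap, but the treated libraries differed from each other more than replicate 2 differed from the controls. The log2 fold change of Ythdf2 was 0.08 (SE 0.05, edgeR adjusted p = 0.218, 95% interval of the ratio from 0.991 to 1.133), and it was 0.0486 without 1-nitropyrene replicate 3. Its pseudogenes Gm6823 and Gm8401, with 1840 and 1740 bp at 95.2% and 96.3% identity, had between 1 and 13 counts per library, and their part in the Ythdf2 counts was not tested.

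Ythdf3 (chromosome 3, 16183212 to 16217037, plus strand), described as a cofactor of both paralogs, had 183 and 187 CPM with 1-nitropyrene, against 173 and 169 CPM in control, with no overlap. Its log2 fold change was 0.11 (SE 0.05), with an unadjusted p of 0.0195 and an edgeR adjusted p of 0.0725 (95% interval of the ratio from 1.013 to 1.156). Summed over the YTHDF genes, the level was 841.1 and 871.8 CPM with 1-nitropyrene, against 855.8 and 849.6 CPM in control, which overlap. Within the family, the log2 ratio of Ythdf1 to Ythdf3 counts was 1.397 and 1.417 with 1-nitropyrene, against 1.568 and 1.599 in control. The ratio of Ythdf1 to Ythdf2 was 1.44 and 1.43 with 1-nitropyrene, against 1.58 and 1.58 in control. Ythdf1 thus made up 57.2% and 57.3% of YTHDF counts with 1-nitropyrene and 59.8% and 60.1% in control. That shift was larger than the spread within either group, but no background of such shares or ratios over other genes was taken. Groups also did not overlap in the ratio of Ythdc2 to Ythdc1, and they overlapped in that of Igf2bp3 to Igf2bp2. The share of Ythdf2 ran from 21% to 21.3% with 1-nitropyrene and from 20% to 20.1% in control. No YTHDF gene was called in the fit reported, and in level 59.2% of all genes tested had groups that did not overlap.

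The nuclear reader Ythdc1 (chromosome 5, 86804221 to 86836659, plus strand) had 125 and 137 CPM with 1-nitropyrene, against 134 and 124 CPM in control, and the groups overlapped. Its log2 fold change was 0.02 (SE 0.06, edgeR adjusted p = 0.886, 95% interval of the ratio from 0.937 to 1.09). Gm43055, which shares 631 bp of exon with it on the same strand, had 0 counts in all 4 libraries.

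Ythdc2 (chromosome 18, 44827746 to 44889724, plus strand), an RNA helicase with a YTH domain, had 36.8 and 38.4 CPM with 1-nitropyrene, against 31.4 and 32.5 CPM in control. Both treated libraries were higher, and the fitted change was close in size to that of Fxr2 at a lower count. The log2 fold change of Ythdc2 was 0.24 (SE 0.10), with an unadjusted p of 0.0221, but it did not pass the adjusted threshold (edgeR adjusted p = 0.0796) and was called in 0 of 15 alternative fits. The 95% interval of its ratio ran from 1.024 to 1.358. With 227 to 342 counts per library, Ythdc2 was counted the least deeply of the readers together with Igf2bp3.

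Neither IGF2BP gene passed the test in edgeR or in DESeq2, and neither had an unadjusted p under 0.05. Igf2bp2 (chromosome 16, 22059009 to 22163299, minus strand), the paralog with the broadest expression in adult tissue, had 51.8 and 49 CPM with 1-nitropyrene, against 57.3 and 51.3 CPM in control. The groups overlapped, and the log2 fold change was -0.12 (SE 0.08, edgeR adjusted p = 0.325, 95% interval of the ratio from 0.82 to 1.032). Leaving out control replicate 1 moved that change to -0.03, and leaving out control replicate 2 to -0.19.

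Igf2bp3 (chromosome 6, 49085223 to 49214957, minus strand), a fetal form seen again in tumours, had 37.9 and 30.4 CPM with 1-nitropyrene, against 36.4 and 37.1 CPM in control. Replicate 3 stood apart from the other 3 libraries, and the treated libraries differed by 22% of their mean. The log2 fold change of Igf2bp3 was -0.10 (SE 0.10, edgeR adjusted p = 0.526, 95% interval of the ratio from 0.811 to 1.072), and it was -0.27 without 1-nitropyrene replicate 2 and 0.05 without replicate 3. This gene shares 1529 bp of exon with Malsu1 on the opposite strand, which had 12.2 and 8.45 CPM with 1-nitropyrene and 9.1 and 7.73 CPM in control, also with replicate 3 the lower of the treated pair. The part of these reads in the Igf2bp3 counts was not tested. With a floor of 3 counts, the 0 counts of Igf2bp1 in control replicate 2, the library of lowest total, allow up to 0.434 CPM.

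**Figure D3:**
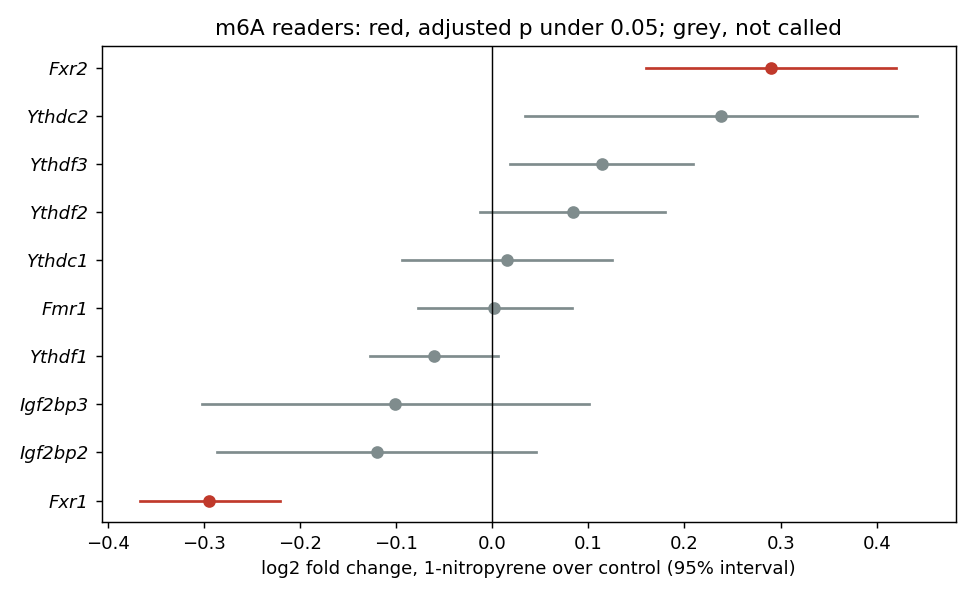
Log2 fold change of each m6A reader, 1-nitropyrene over control (horizontal axis), with its 95% interval from edgeR, ordered by size from Fxr2 at the top to Fxr1 at the bottom. Fxr1 (-0.29) and Fxr2 (0.29), in red, are the called genes. The intervals of Ythdc2 and Ythdf3 (grey) lie above 0 without passing the adjusted threshold.

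Both treated libraries lay above both controls in 4 readers (Ythdf2, Ythdf3, Ythdc2 and Fxr2) and below them in 2 (Ythdf1 and Fxr1), and the groups overlapped in 4. Over all genes tested, 59.2% had groups that did not overlap, 30% with the treated libraries above and 29.2% with them below. Counts of 4 and 2 among 10 readers are near that background and are no result about the readers.

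Levels of different readers were compared per kb of merged exon length, as TMM-normalised CPM per kb. Ythdf1 stood highest, at 148 ± 3.82 with 1-nitropyrene and 154 ± 0.215 in control, followed by Fxr1 at 52.3 ± 2.32 with 1-nitropyrene and 64.2 ± 1.14 in control. The first stood far above the rest on this scale. Next came Ythdf2, at 39.7 ± 1.34 with 1-nitropyrene and 37.4 ± 0.179 in control. The level per kb of Ythdf3 was 34.5 ± 0.541 with 1-nitropyrene and 31.8 ± 0.531 in control, and its range over the 4 libraries overlapped that of Fmr1, at 31.9 ± 1.66 with 1-nitropyrene and 31.9 ± 0.144 in control. Fxr2 was at 25.6 ± 0.499 with 1-nitropyrene and 20.8 ± 0.712 in control. Below these came Ythdc1, at 9.6 ± 0.658 with 1-nitropyrene and 9.45 ± 0.495 in control. Igf2bp2 was at 6.81 ± 0.273 with 1-nitropyrene and 7.33 ± 0.572 in control. The lowest were Igf2bp3 (4.19 ± 0.651 with 1-nitropyrene, 4.5 ± 0.0606 in control) and Ythdc2 (4.23 ± 0.129 with 1-nitropyrene, 3.6 ± 0.086 in control), whose ranges overlapped. The other neighbours in this order did not overlap over the 4 libraries.

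This order depended on the length used. With the length of the principal transcript, Ythdc1 stood at 44.3 ± 3.03 with 1-nitropyrene and 43.6 ± 2.28 in control, since its merged exons span 13651 bp and its principal transcript 2960 bp. On that scale Fxr1 was at 140 ± 6.19 with 1-nitropyrene and 171 ± 3.03 in control, so its range overlapped that of Ythdf1 (154 ± 3.97 with 1-nitropyrene, 161 ± 0.223 in control), and the treated libraries had Fxr1 below Ythdf1 while the controls had it above. Igf2bp2, Igf2bp3 and Ythdc2 were the lowest with either length.

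**Figure D4:**
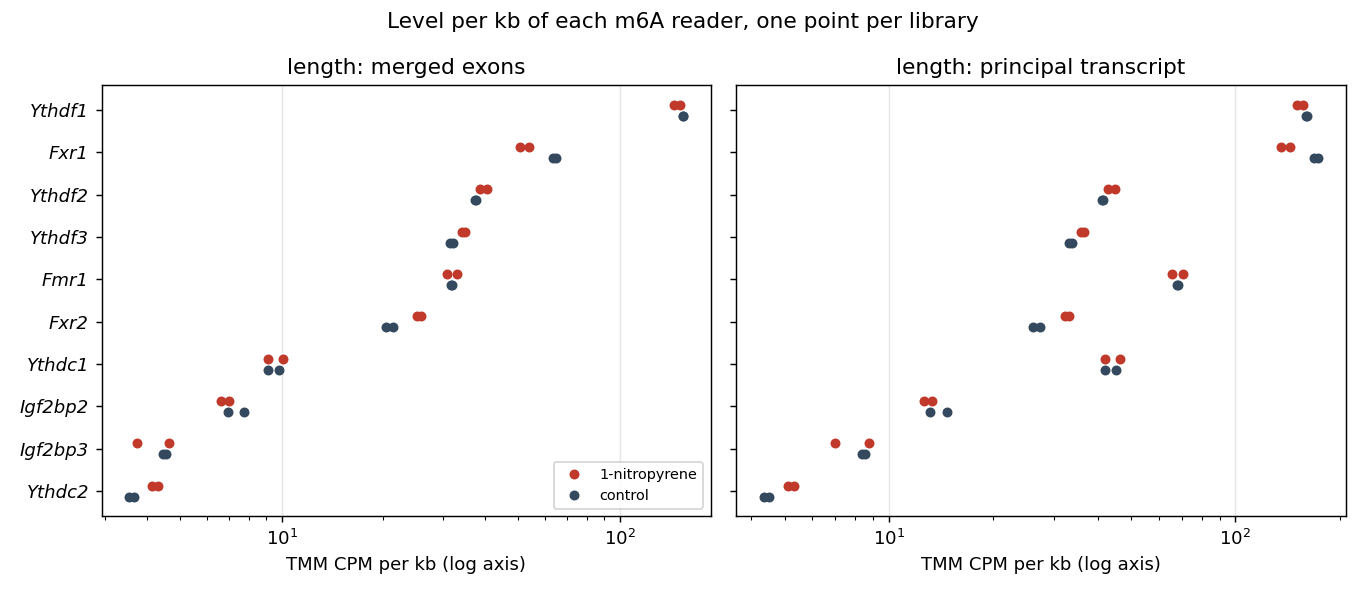
Level of each m6A reader in TMM-normalised CPM per kb (log axis), 1 point per library, 1-nitropyrene (red) above control (dark) in each row. The left panel divides by merged exon length and the right by the principal transcript. Ythdf1 is at 148 with 1-nitropyrene and 154 in control in the left panel, and Ythdc1 is at 9.6 with 1-nitropyrene in the left panel and at 44.3 in the right one.

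Genes whose profile over the 4 libraries was most like that of each changed reader were looked up among 4297 protein-coding genes averaging 10 CPM or more, by Euclidean distance between centred log2 CPM values. For Fxr1 they were Hnrnpa3 (distance 0.00964), Fyn (0.0156) and Nrn1 (0.0244). For Fxr2 they were Srsf6 (distance 0.00865), Hcfc1 (0.0164) and Ppp2cb (0.0181). With 4 libraries in 2 groups, such profiles differ mainly by the size of the treatment difference.

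Other genes of the m6A pathway and of the readers' partners were counted in the same fit. They are to be read against the 24.5% of all genes called, 13.2% as higher and 11.2% as lower. The 42.6% called at the readers' levels covers only genes averaging between the lowest and the highest reader. Some listed genes lie outside that range, such as Cnot1, Prrc2a and Hnrnpa2b1 above it and Zcchc4 and Mov10 below it. Of 13 writer genes, a list wider than the mRNA complex described above, all were tested. Of these 2 rose, 3 fell and 8 were not called, with a median log2 fold change of 0.08. The calls include Zcchc4, lower, at only 3 and 10 counts with 1-nitropyrene and 20 and 16 in control. Rbm15, an adaptor that guides the methyltransferase to RNA, fell to 38.9 ± 0.72 CPM with 1-nitropyrene, against 53 ± 1.23 CPM in control (log2 fold change -0.44, SE 0.09, edgeR adjusted p = 1.73e-05). Its paralog Rbm15b fell to 48.7 ± 2.63 CPM, against 62.8 ± 7.42 CPM in control (log2 fold change -0.34, SE 0.08), a call that ended without control replicate 2. The scaffold gene Virma rose to 65.4 ± 2.72 CPM, against 52 ± 4.02 CPM in control (log2 fold change 0.34, SE 0.08), a call that ended without control replicate 1. The number of writer genes called was 3 in DESeq2, 3 without a filter on low counts, and 2 without either control library. Of the erasers, Alkbh5 was not called (38.7 ± 6.8 CPM with 1-nitropyrene, 41.4 ± 4.29 CPM in control, edgeR adjusted p = 0.641), and Fto had 0 and 1 counts with 1-nitropyrene and 3 and 4 in control and was not tested. Fbxw7, the mRNA of the study's question, had 24.2 ± 1.19 CPM with 1-nitropyrene and 28.2 ± 1.59 CPM in control (edgeR adjusted p = 0.195).

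Of 11 other proposed readers 9 were tested, 3 rose, 1 fell and 5 were not called, with a median log2 fold change of 0.06. Over all genes 24.5% were called, and 42.6% at the readers' levels, where not all of the 9 lie. The split depended on the fit. It was 2 higher and 3 lower without scaling factors, and 3 and 3 with only genes averaging 10 CPM or more. In DESeq2 it was 2 higher and 1 lower. Prrc2a rose to 758 ± 22.4 CPM with 1-nitropyrene, against 641 ± 5.18 CPM in control (log2 fold change 0.24, SE 0.03, edgeR adjusted p = 1.5e-13). The stress granule gene G3bp2 rose to 164 ± 1.59 CPM, against 129 ± 1.15 CPM in control (log2 fold change 0.35, SE 0.05). The nuclear reader Hnrnpa2b1 fell by 0.14 on the log2 scale (SE 0.025, edgeR adjusted p = 2.45e-07).

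Genes that act with the readers were counted by family. Of 16 deadenylation and decay genes linked to YTHDF2, 13 were tested and 5 were called, each as higher, with a median log2 fold change of 0.13. Over all genes 24.5% were called, 13.2% as higher, and 42.6% were called at the readers' levels. Cnot1, the scaffold of CCR4-NOT that YTHDF2 binds, rose to 684 ± 19 CPM with 1-nitropyrene, against 514 ± 5.24 CPM in control (log2 fold change 0.41, SE 0.03, edgeR adjusted p = 1.48e-35), and was called in all 15 alternative fits. The CCR4-NOT subunit genes Cnot11 (log2 fold change 0.39, SE 0.10) and Cnot7 (0.32, SE 0.09), a deadenylase, rose too, but DESeq2 called neither. The count of 5 became 1 in DESeq2, 2 without control replicate 1 and 3 without 1-nitropyrene replicate 3. Rida and Pop1, of the RNase P and MRP route of YTHDF2 decay, had 0 counts in all 4 libraries.

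Of 7 cofactors linked to IGF2BP proteins, all tested, 4 were called, each as higher, with a median log2 fold change of 0.10, against 13.2% of all genes called as higher and 42.6% called in either direction at the readers' levels. The helicase gene Dhx9 had the largest change among them, at 412 ± 9.97 CPM with 1-nitropyrene and 246 ± 4.91 CPM in control (log2 fold change 0.74, SE 0.04, edgeR adjusted p = 9.06e-77). The Y-box protein gene Ybx1 rose by a log2 fold change of 0.17 (SE 0.02) and Hnrnpu by 0.10 (SE 0.02). Both had a higher CPM than any reader, so the shares above are not taken at their levels. In Matr3, also called, the groups overlapped (149 and 152 CPM with 1-nitropyrene, 125 and 151 CPM in control). The number of these cofactors called was 3 in DESeq2, in limma-voom, with upper quartile factors and without a filter on low counts. Without scaling factors, and with only genes averaging 10 CPM or more, 3 were called as higher and 1 as lower. The number also varied with 1 library left out. Of 11 mRNAs known as IGF2BP targets in other cells, 5 were tested and 1 rose, the actin gene Actb (log2 fold change 0.245, SE 0.015). Igf2, Mapk4 and Lin28b had 0 counts in all 4 libraries, and Myc had between 0 and 2.

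Of 10 partners of the fragile X proteins tested, 1 rose, 2 fell and 7 were not called, near the 24.5% called over all genes, with a median log2 fold change of 0.02. Nufip2 fell to 111 ± 3.5 CPM with 1-nitropyrene, against 144 ± 8.83 CPM in control (log2 fold change -0.38, SE 0.06), and the helicase gene Mov10 to 10 ± 2.06 CPM, against 19.5 ± 0.328 CPM in control (log2 fold change -0.95, SE 0.16). Caprin1, a translational regulator in RNA granules, rose to 409 ± 2.79 CPM, against 355 ± 6.83 CPM in control (log2 fold change 0.20, SE 0.04). Cyfip2 had 0 counts in all 4 libraries. Of the splicing and export partners of YTHDC1, 1 of 9 tested rose (Srsf1, log2 fold change 0.08, SE 0.03), and it was not called in 6 of the 15 alternative fits, without control replicate 1 and without 1-nitropyrene replicate 2 among them. Of the partners of YTHDC2, Rbm46 rose (log2 fold change 0.33, SE 0.10). Its call ended in DESeq2, without control replicate 1 and without 1-nitropyrene replicate 2, at log2 fold changes of 0.32, 0.286 and 0.287, and Xrn1 was not called. Meioc, its germ line partner, and the export gene Nxt1 had 0 counts in all 4 libraries.

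**Figure D5:**
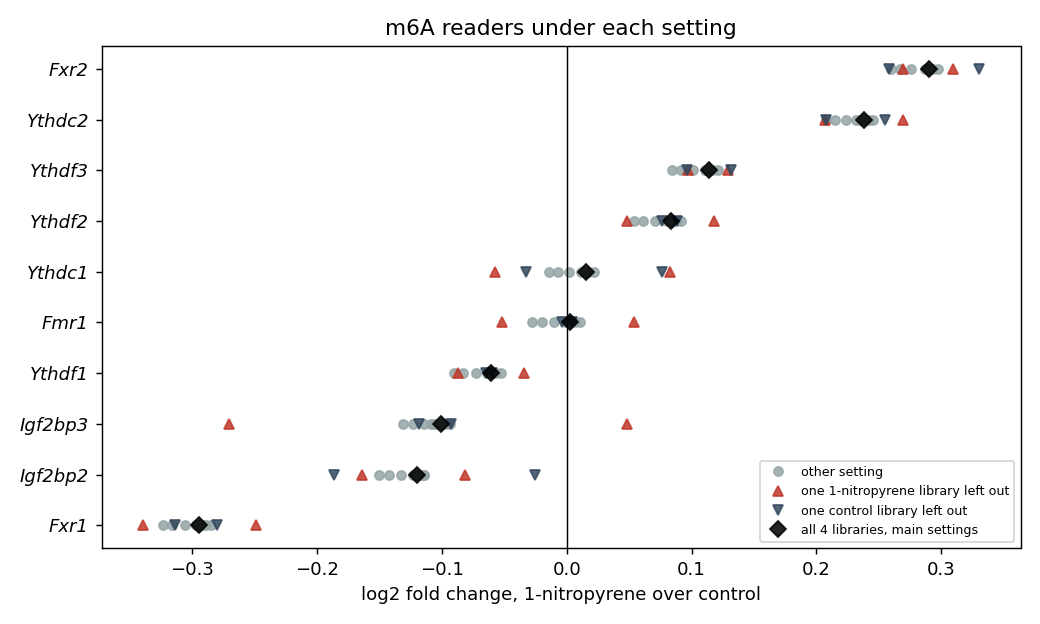
Log2 fold change of each m6A reader, 1-nitropyrene over control (horizontal axis), with all 4 libraries and main settings (diamonds), with 1 library left out (triangles) and under other settings (grey). Fxr1 stays between -0.34 and -0.25 and Fxr2 between 0.26 and 0.33, while Ythdc1, Fmr1 and Igf2bp3 have points on both sides of 0.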

How the data were processed

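The deposited file holds raw counts of reads for each gene and library, made by the authors without normalization. Tools listed in the submitters' processing notes, without roles, are DESeq2, featureCounts 1.6.3 and HISAT2 2.1.0, on build GRCm38 (mm10). How strand and multiply matching reads were treated, and with which annotation, is not given in the sources used here. Of 53465 identifiers 53360 matched GENCODE M21, used for symbols, coordinates and lengths.

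Counts were analysed with edgeR 4.0.16 in R 4.3.3: filterByExpr (7738 genes), TMM factors (0.989 to 1.01), a quasi-likelihood fit with legacy set to FALSE, and Benjamini-Hochberg adjustment. The fit used 1 dispersion for all genes (biological coefficient of variation 2.34%). The prior degrees of freedom came out infinite, so the remaining spread was shared between genes of like level and not estimated gene by gene. Standard errors are the absolute log2 fold change over the square root of F. Tests are two-sided. Alternatives were other scalings, filters and gene sets, DESeq2 1.42.0, limma-voom (limma 3.58.1), other spread estimates, an adjusted p of 0.01 and each library left out, where the lone library is assumed to vary like the other pair. The chi-square per degree of freedom was 2.05 between the treated libraries and 1.62 between the controls, so none were merged. Transcripts of other genes were called similar from 500 bp at 90% identity. Ribosomal RNA loci are those of rRNA type and Gm42418.

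The members and the 9 gene lists were chosen with earlier results of these data known. Named genes are the readers, Igf2bp1, up to 3 called genes per list by p, list genes with 0 counts, Fbxw7, Alkbh5 and the 3 most similar profiles. Genes that overlap or resemble a reader, and Fto, Myc, Matr3, Xrn1 and Zcchc4, were added after their values were seen. 1 gene of the IGF2BP target list is not reported here.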

Additional observations from a re-analysis of the deposited data

How the results depend on the processing

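Under 15 alternative fits and a stricter adjusted p of 0.01, between 2 and 3 readers were called, against 2 in the fit reported. Fxr1 stayed lower and Fxr2 higher, past the threshold, in all 15. The number of genes called over the transcriptome was 1894, but 830 in DESeq2, and between 1201 and 1502 with 1 library left out, the lowest without control replicate 1. The cause was not tested, though a fit with fewer libraries has less power by construction.

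Readers that were not called changed sign in places. Fmr1, at 0.002, was at -0.000482 with RLE factors, -0.01 with upper quartile factors, -0.0274 without scaling factors, -0.02 at 10 CPM or more and -0.000786 in DESeq2. Ythdc1 was at -0.0145 without scaling factors and -0.00691 at 10 CPM or more. With 1 library left out, Fmr1 ranged from -0.0517 to 0.0542, Ythdc1 from -0.0574 to 0.0824, Igf2bp3 from -0.27 to 0.0482, Alkbh5 from -0.264 to 0.0956 and Malsu1 from -0.0184 to 0.508. The sign of Fmr1 turned without control replicate 1 (-0.00342) or 1-nitropyrene replicate 2, and that of Ythdc1 without control replicate 2 (-0.0324) or 1-nitropyrene replicate 3. The cause was not tested. Without scaling factors calls split into 869 higher and 1016 lower, against 1024 and 870 with TMM.

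No paired analysis was possible because the groups share only replicate number 2. With 227 to 5568 counts per reader and library, depth limits Ythdc2 and the IGF2BP genes most.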
